A study of Mus musculus with 9 samples.

Results

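The 10 genes described here are markers of mast cells and basophils, chosen by name and matched to the Ensembl identifiers of the table: Fcer1a, Ms4a2, Fcer1g, Cpa3, Cma1, Gzmb, Mcpt8, Prss34, Hdc and Mitf. All 10 had a row among the 37980 genes of the table. They were compared between 4 samples of NA MPs and 5 samples of WT MPs. MPs are myeloid progenitors, here bone marrow cells of C57BL/6 mice that lacked lineage markers and Sca1 and carried c-kit, and 100000 of them were sorted for each sample. NA MPs expressed a fusion of Nup98 with the homeodomain of Hoxa10 (Nup98-Hoxa10hd, NA), which in this mouse line is switched on in blood cells by a Vav-Cre, and the Tdtomato+ cells were taken from mice given NA multipotent progenitors (MPPs). For WT MPs, CD45.2+ cells were taken at the same time from mice given WT MPPs. The sample labels place the sort 3 months after transplantation, and the study's methods give a later time. In blood the paper counts WT donor cells as CD45.1+, and it describes the recipients as CD45.2+. A WT MP sorted as CD45.2+ can therefore not be taken to come from the donor rather than from helper marrow or the recipient. The number of mice behind a sample is not given, so that p-values measure the spread between these samples, which may be technical.

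Mast cells and basophils are granulocytes that bind IgE through a surface receptor and, when antigen crosslinks it, release stored histamine and proteases. The receptor is built from an alpha chain that holds IgE, a beta chain that amplifies the signal and a gamma chain that other Fc receptors share. Both lineages arise in the marrow from myeloid progenitors, and their granule contents differ in part: basophils store Mcpt8 and Prss34, while mast cells store chymases. Carboxypeptidase A3 (Cpa3) is not used here to tell the lineages apart.

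Levels are given as normalized counts, which are RSEM read counts that the authors scaled between samples. In each sample nearly every value was a whole multiple of what 1 read was worth, from 0.827 to 1.2 normalized counts, which puts the depth between 5557717 and 8106140 reads per sample. Both genes that make up the fusion were higher in NA MPs, and these gene-level values do not separate reads of the fusion from those of the mouse's own genes. Hoxa10 stood at 128.8 ± 17.7 normalized counts in NA MPs (SD, n = 4) and 8.05 ± 2.57 in WT MPs (SD, n = 5), and Nup98 at 955.8 ± 81.8 against 599.0 ± 29.9. The groups did not overlap for either gene. Of the genes the sort rests on, Kit, the receptor for stem cell factor, had 2964 ± 133 normalized counts in NA MPs and 3039 ± 42.4 in WT MPs. Its log2 fold change of -0.04 ± 0.029 (SE) was not past the threshold (adjusted p = 0.353). Ly6a, the gene of Sca1, had 21.35 ± 2.80 against 18.25 ± 5.17 and did not pass either. Itgam, the gene of the lineage marker Mac1, was higher in NA MPs, at 507.6 ± 59.7 against 417.6 ± 21.3, although the groups overlapped. Its log2 fold change was 0.27 ± 0.063 (SE). Of 8 tested genes listed for the progenitor gate, 3 were higher and 1 was lower. The T cell gene Cd3e had no count in any sample. NA MP replicate 1 stood apart from the other 3 NA MPs on the second principal component, which held 6.12% of the variance, at 20.3 against -8.93 to -3.01.

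Of the 10 genes, 7 were higher in NA MPs, 1 was lower and 2 did not pass the test, which was limma on log2(normalized count + 1) across 11987 genes with a threshold of 0.05 on the adjusted p. Passing it were 34.3% of all genes tested, 16.9% as higher and 17.3% as lower in NA MPs. The groups did not overlap for 6 of the genes that were higher and for the 1 that was lower, where 13.5% of all genes tested lay wholly higher and 12.8% wholly lower. Cma1, counted among the 7 and the 6, entered the test only through the NA MPs, where it was high. The median log2 fold change of the 10 genes was 0.68, beside -0.01 for all genes tested. In bulk samples, more cells of a type and more RNA per cell cannot be told apart. Since the deposited scaling sets all samples to nearly one level, every change is relative to the rest of each sample's RNA.

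**Figure D1:**
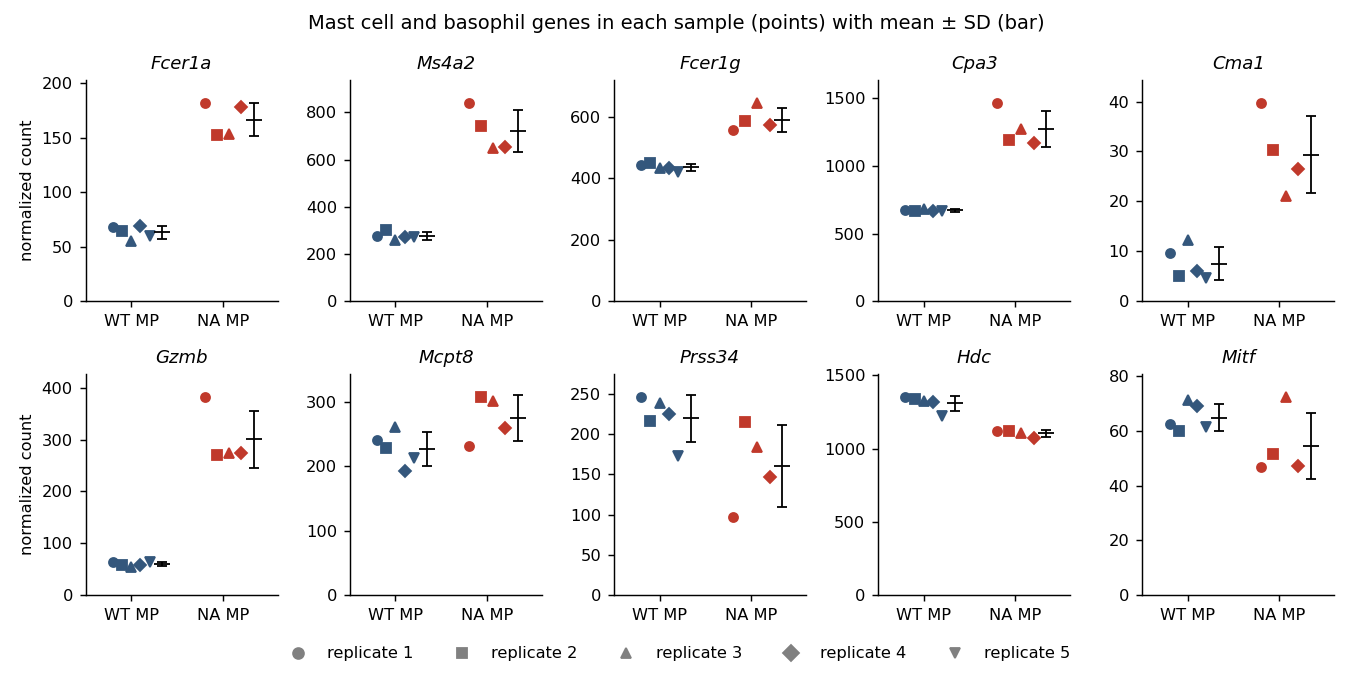
Normalized count of each of the 10 genes (vertical axes, starting at 0) in the 5 WT MP and 4 NA MP samples, with the replicate as the symbol and the mean ± SD as a bar. The groups are apart for Fcer1a, Ms4a2, Fcer1g, Cpa3, Cma1, Gzmb and Hdc and overlap for Mcpt8, Prss34 and Mitf.

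Sequence before the transcription start is shown for the 5 genes with the largest log2 fold changes (Gzmb, Cma1, Fcer1a, Ms4a2 and Cpa3) and for Prss34, which had the lowest, so that both ends of the 10 genes can be set side by side. The 250 bases were taken from RefSeq (GRCm38.p6), are written 5′ to 3′ on the gene's strand, and lie at chr1:173227230-173227479 (minus) for Fcer1a, chr19:11623720-11623969 (minus) for Ms4a2, chr3:20242182-20242431 (minus) for Cpa3, chr17:25298144-25298393 (plus) for Prss34, chr14:56262335-56262584 (minus) for Gzmb and chr14:55944676-55944925 (minus) for Cma1. Capitals mark the letters AGATAA or TGATAA on either strand (GATA) and CACGTG or CATGTG on either strand (E-box, the letters bound by the family of Mitf).
Fcer1a: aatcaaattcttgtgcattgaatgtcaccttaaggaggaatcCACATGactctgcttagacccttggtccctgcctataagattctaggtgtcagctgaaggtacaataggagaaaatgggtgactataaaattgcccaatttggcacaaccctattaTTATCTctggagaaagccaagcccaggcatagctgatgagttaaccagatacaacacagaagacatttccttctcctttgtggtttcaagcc
Ms4a2: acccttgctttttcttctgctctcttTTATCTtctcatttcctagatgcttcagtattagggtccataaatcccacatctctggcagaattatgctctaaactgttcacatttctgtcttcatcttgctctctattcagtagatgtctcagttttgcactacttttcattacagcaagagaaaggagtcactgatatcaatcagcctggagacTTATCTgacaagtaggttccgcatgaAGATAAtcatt
Cpa3: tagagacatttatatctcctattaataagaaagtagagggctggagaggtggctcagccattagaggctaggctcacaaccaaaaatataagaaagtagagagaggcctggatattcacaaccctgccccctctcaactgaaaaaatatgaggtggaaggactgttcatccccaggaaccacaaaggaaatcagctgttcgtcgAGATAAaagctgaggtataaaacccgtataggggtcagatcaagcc
Prss34: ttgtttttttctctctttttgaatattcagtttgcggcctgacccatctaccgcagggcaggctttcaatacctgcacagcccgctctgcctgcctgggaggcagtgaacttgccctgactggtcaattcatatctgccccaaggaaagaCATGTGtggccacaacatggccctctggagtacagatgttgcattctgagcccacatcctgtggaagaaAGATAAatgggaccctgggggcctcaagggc
Gzmb: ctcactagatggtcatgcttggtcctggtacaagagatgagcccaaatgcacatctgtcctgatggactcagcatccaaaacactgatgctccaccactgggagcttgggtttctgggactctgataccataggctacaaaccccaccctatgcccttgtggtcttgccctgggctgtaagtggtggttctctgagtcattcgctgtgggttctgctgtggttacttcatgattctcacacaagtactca
Cma1: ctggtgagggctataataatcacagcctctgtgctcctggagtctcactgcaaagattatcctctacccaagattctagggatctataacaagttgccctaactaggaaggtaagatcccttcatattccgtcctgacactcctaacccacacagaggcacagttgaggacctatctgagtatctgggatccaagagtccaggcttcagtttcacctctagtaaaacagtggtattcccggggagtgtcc
GATA letters were found in the windows of 5 of the 10 genes (Fcer1a, Ms4a2, Cpa3, Prss34 and Mitf), and in 6 of their 12 windows, as Mitf has several starts, against 16.6% of the 32851 RefSeq windows of the same length. Ms4a2 held 3 matches, starting 224, 37 and 11 bases before the start. E-box letters were found in 2 of the 12 windows, those of Fcer1a and Prss34, and in 17.6% of all windows. Letters of Runx factors (TGTGGT or TGCGGT, either strand) were found in 6 of the 12 windows as well, against 18.6% of all, and those of PU.1 (GAGGAA, either strand) in 2 of the 12, against 23.3%; neither is in capitals. The windows of Gzmb and Cma1, which had the largest changes, held neither GATA nor E-box letters, and that of Gzmb held 2 Runx matches, starting 93 and 34 bases before the start. The RefSeq start of Gzmb lies before the start that GENCODE M21 gives. A match of letters is a description and not a bound site.

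The alpha and beta chains of the IgE receptor rose together and by more than the shared gamma chain. Fcer1a, the chain that holds IgE, had 181.3, 152.7, 153.7 and 177.7 normalized counts in NA MP replicates 1 to 4 and 67.99, 64.17, 55.02, 69.04 and 59.63 in WT MP replicates 1 to 5. Every NA MP lay above every WT MP. The means were 166.3 ± 15.3 (SD, n = 4) and 63.2 ± 5.87 (SD, n = 5), a log2 fold change of 1.38 ± 0.10 (SE, adjusted p = 5.92e-15).
Ms4a2, the beta chain, had 837.9, 741.1, 649.1 and 652.2 normalized counts in NA MPs and 276.3, 302.0, 260.8, 274.2 and 271.2 in WT MPs. The groups were again apart, and NA MP replicate 1 was the highest. Its log2 fold change was 1.37 ± 0.062 (SE, adjusted p = 3.13e-18).
Fcer1g, the gamma chain, which also serves the activating Fc receptors for IgG on other myeloid cells, had 555.8, 585.4, 643.5 and 573.6 normalized counts in NA MPs and 444.6, 448.3, 433.0, 432.3 and 419.3 in WT MPs. The groups did not overlap, but here NA MP replicate 1 was the lowest of the 4. The log2 fold change was 0.43 ± 0.049 (SE, adjusted p = 1.1e-09).
The ratio of Ms4a2 to Fcer1a within a sample was 4.34 ± 0.52 in NA MPs and 4.41 ± 0.36 in WT MPs, while that of Ms4a2 to Fcer1g was 1.23 ± 0.21 and 0.636 ± 0.027. These ratios were chosen after the values were seen and were not tested.

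Of the 10 genes, 3 are granule proteases that mast cells can store, and each of the 3 rose. They do not stand for all such proteases, as Mcpt1, Mcpt2, Mcpt4, Tpsb2 and Tpsab1 were too low for a test. Cpa3, carboxypeptidase A3, had 1463, 1192, 1276 and 1170 normalized counts in NA MPs and 677.7, 664.8, 685.7, 669.4 and 666.2 in WT MPs. The WT MPs lay close together and every NA MP lay above them. The means were 1275 ± 133 (SD, n = 4) and 672.8 ± 8.79 (SD, n = 5), and the log2 fold change was 0.92 ± 0.047 (SE, adjusted p = 7.26e-17).
Cma1, a mast cell chymase, was scarce, with 39.61, 30.33, 21.15 and 26.45 normalized counts in NA MPs and 9.71, 5.13, 12.23, 6.00 and 4.66 in WT MPs. The groups were apart, although the WT values rest on 5 to 12 reads a sample. The log2 fold change was 1.88 ± 0.28 (SE, adjusted p = 4.96e-07), on a scale that understates the change of so low a gene. Of the WT MPs only replicate 3 reached the level needed for a test, so Cma1 entered it through the NA MPs.
Gzmb, granzyme B, a serine protease of cytotoxic lymphocytes that mast cells can also make, changed most, with 381.7, 271.0, 273.9 and 274.4 normalized counts in NA MPs and 63.67, 59.04, 55.02, 58.03 and 63.36 in WT MPs. All NA MPs lay far above the WT MPs, and replicate 1 was above the other 3. The means differed 5.02-fold and the log2 fold change was 2.29 ± 0.097 (SE, adjusted p = 2.69e-23). Without NA MP replicate 1 it was 2.17.

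Markers of cytotoxic lymphocytes, the other cells known for Gzmb, are given beside it, and their part in its change was not tested. Of 15 genes listed for them 2 could be tested. Nkg7, a granule membrane protein, was higher, at 1958 ± 66.1 against 1749 ± 63.2 normalized counts, and Klrk1, an activating receptor, stood at 30.1 ± 3.24 against 28.0 ± 2.44 and did not pass (adjusted p = 0.717). Gzmk, Klre1, Cd3e and Cd3g had no count in any sample. Gzma, another granzyme, averaged 0.806 normalized counts in NA MPs and had none in WT MPs, and Prf1, perforin, averaged 1.94 and 0.573. Klrk1, Gzma and Prf1 were named after their values were seen. The summed level of the list, most of it Nkg7, ran from 1944 to 2087 in NA MPs and from 1696 to 1850 in WT MPs.

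The proteases typical of basophils and the enzyme that makes histamine had smaller changes, in either direction. Mcpt8, the basophil protease that defines the lineage in mice, had 231.7, 307.4, 301.7 and 260.4 normalized counts in NA MPs and 241.7, 229.3, 260.8, 193.1 and 212.4 in WT MPs. NA MP replicate 1 fell among the WT MPs, so the groups overlapped. The log2 fold change of 0.27 ± 0.086 (SE) passed the test (adjusted p = 0.0166), but not without NA MP replicate 2 (0.22, adjusted p = 0.0662) or without NA MP replicate 3 (0.23, adjusted p = 0.064).
Prss34, another basophil protease, had 97.24, 215.4, 183.7 and 147.1 normalized counts in NA MPs and 246.0, 216.5, 238.4, 225.1 and 172.4 in WT MPs. The groups overlapped, with replicate 1 the lowest of the NA MPs. Its log2 fold change was -0.50 ± 0.24 (SE) and was not past the threshold (adjusted p = 0.157), while without the robust option of the test the adjusted p was 0.009.
Hdc, histidine decarboxylase, had 1119, 1123, 1106 and 1073 normalized counts in NA MPs and 1351, 1337, 1323, 1316 and 1221 in WT MPs. Every NA MP lay below every WT MP, by a small margin, with a log2 fold change of -0.24 ± 0.036 (SE, adjusted p = 4.29e-07).
The ratio of Cpa3 to Hdc was thus 1.15 ± 0.11 in NA MPs and 0.514 ± 0.019 in WT MPs, and that of Mcpt8 to Prss34 1.81 ± 0.41 and 1.05 ± 0.14, again without a test.

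Mitf, the transcription factor that mast cells and pigment cells need, had 46.82, 51.56, 72.37 and 47.11 normalized counts in NA MPs and 62.59, 59.89, 71.32, 69.04 and 61.50 in WT MPs. NA MP replicate 3 was the highest of all 9 samples and the other 3 NA MPs were the lowest. The log2 fold change of -0.27 ± 0.13 (SE) was not past the threshold (adjusted p = 0.117). Without NA MP replicate 3 it was -0.41 (adjusted p = 0.0182). No melanocyte marker of the 5 listed reached the level needed for a test, Dct and Tyrp1 had no count, and their summed level was 8.09 to 15.6 normalized counts in NA MPs and 1.86 to 14.0 in WT MPs.

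An exact two-sided permutation test of each gene alone, over all ways to choose 4 of the 9 samples, gave p = 0.0159, the smallest it can give, for the 7 genes whose groups were apart. Any gene whose groups are apart gets this p, so it only restates that they were. These p-values were not adjusted for the number of genes. The permutation test gave p = 0.0794 for Mcpt8, p = 0.0794 for Prss34 and p = 0.111 for Mitf (exact, 4 against 5 samples).

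**Figure D2:**
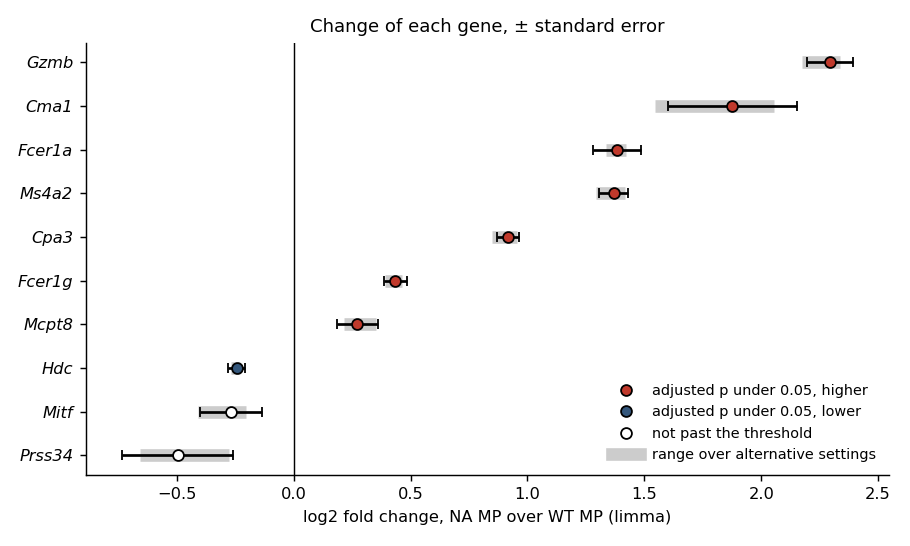
Log2 fold change of each gene (horizontal axis, NA MP over WT MP, limma) with its standard error as a bar and, in grey, the range over the alternative settings. Gzmb, at 2.29, and Cma1, at 1.88, lie farthest to the right, and only Hdc, Mitf and Prss34 lie left of 0.

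Per kilobase of exon, a scale that allows a rough comparison of genes, Fcer1g and Cpa3 were the most abundant of the 10 in both groups and their order changed. The length is that of all annotated exons of a gene, which can exceed the length of its RNA in these cells. It was 6389 bases for Hdc, 1517 for Cpa3 and 874 for Fcer1g. The order of genes, and the place of Hdc in it, depends on this choice. WT MPs had 498.3 ± 13.1 normalized counts per kilobase of Fcer1g and 443.5 ± 5.79 of Cpa3, whereas NA MPs had 840.8 ± 87.9 of Cpa3 and 674.6 ± 43.4 of Fcer1g. In WT MPs there followed Mcpt8 at 227.9, Hdc at 205.0, Prss34 at 180.1, Ms4a2 at 98.4, Fcer1a at 63.3, Gzmb at 41.7, Mitf at 10.47 and Cma1 at 6.92. The ranges over samples overlapped there between Mcpt8 and Hdc, between Hdc and Prss34 and between Mitf and Cma1.
In NA MPs the order after the first pair was Mcpt8 at 275.8, Ms4a2 at 256.0, Gzmb at 209.1, Hdc at 173.0, Fcer1a at 166.7, Prss34 at 131.8, Cma1 at 27.0 and Mitf at 8.79. Neighbours whose ranges overlapped were Mcpt8 and Ms4a2, Ms4a2 and Gzmb, Hdc and Fcer1a, and Fcer1a and Prss34. Gzmb and Ms4a2 thus moved from below Prss34 to above it, and Cma1, whose range overlapped that of Mitf in WT MPs, lay above it in NA MPs.

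**Figure D3:**
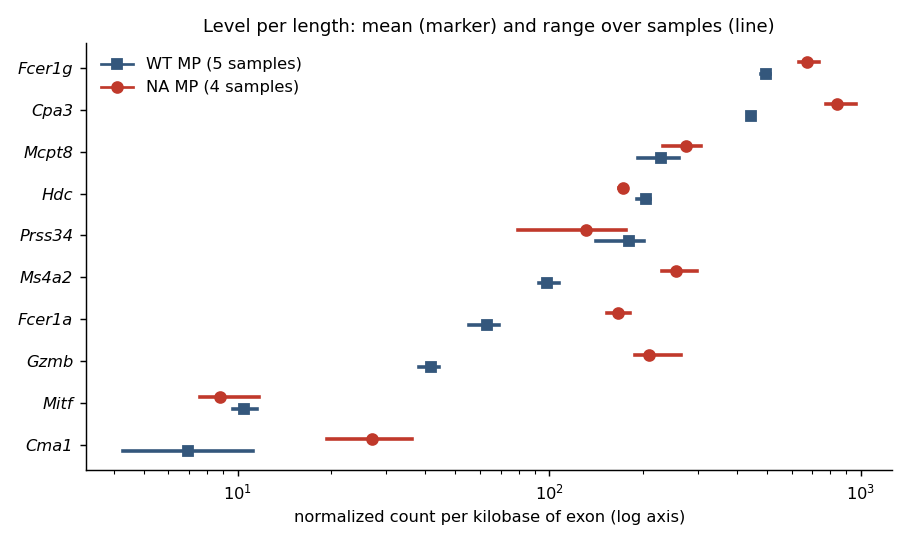
Level of each gene per kilobase of exon (horizontal log axis, normalized counts per kilobase) in WT MPs (squares) and NA MPs (circles), as the mean with a line from the lowest to the highest sample. Genes are in the order of the WT MPs, from Fcer1g at 498.3 to Cma1 at 6.92.

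The NA MPs did not vary as one. Replicate 1 was the highest NA MP for Cpa3, Ms4a2, Fcer1a, Gzmb and Cma1 and the lowest for Fcer1g, Mcpt8, Prss34 and Mitf. Without it the log2 fold changes of the first 5 were 0.85, 1.29, 1.34, 2.17 and 1.72, all still past the threshold.

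Genes that act with the 10 were taken from 9 lists, with 85 genes in the table besides the 10 and 60 tested. Of these 31 were higher in NA MPs (51.7%) and 9 lower (15.0%), and the median of their log2 fold changes was 0.13. Of all genes tested 16.9% were higher and 17.3% lower, so the share called lower was near that of any genes. The counts for single lists below, each of few genes, are to be read beside the same shares. Of the 17 genes that act in or on the signalling of the IgE receptor, 9 were higher and none was lower by this test. Most of these changes were small, as the median log2 fold change of the 17 was 0.12. The 3 with the largest changes are given here. Lat2, an adaptor that the receptor's kinases phosphorylate, stood at 837.8 ± 41.8 normalized counts in NA MPs and 311.0 ± 22.4 in WT MPs (log2 fold change 1.43 ± 0.053, SE). Lat, the related adaptor, rose by 0.75 ± 0.11 and the kinase Fyn by 0.61 ± 0.070 on the log2 scale. An exon of Lat2 overlaps Rfc2 and one of Lat a microRNA gene, so their counts are uncertain. The same holds for Slc18a2, Alox5ap, Ptgs1, Csf2rb2, Stat5a, Ms4a4c, Ms4a6b, Ms4a6c, Ear1, Rag1 and Pklr, which share exon bases with another gene, whereas none of the 10 genes does.

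Receptors that need the gamma chain went both ways. Of 8 genes 4 were tested: Clec4e, a receptor for fungal and mycobacterial glycolipids, rose by 1.07 ± 0.079 on the log2 scale, and Fcgr3, a low-affinity IgG receptor, fell from 1184 ± 41.8 to 795.3 ± 37.6 normalized counts (log2 fold change -0.57 ± 0.039).
For the contents of granules, Slc18a2, which loads amines such as histamine into vesicles, had 610.2 ± 92.8 normalized counts against 380.0 ± 19.3 (log2 fold change 0.67 ± 0.075), and Srgn, the core protein of serglycin that holds granule proteases, rose by 0.32 ± 0.025. Tph1, the enzyme of serotonin synthesis, had no count. Of 9 other granule proteases only Ctsg, cathepsin G, which neutrophil progenitors make in bulk, was tested, with a log2 fold change of 0.17 ± 0.022, and Mcpt9, Cma2 and Tpsab1 had no count.
Of 6 genes of eicosanoid synthesis, 2 were higher and 2 lower among 5 tested. Hpgds, which makes prostaglandin D2 in mast cells, had 13.3 ± 4.05 against 4.02 ± 2.03 normalized counts (log2 fold change 1.595 ± 0.38), Alox5ap rose by 0.16 ± 0.038, and Ptgs1 fell by 0.25 on the log2 scale. Hpgds entered the test only through the NA MPs. Alox5, with a log2 fold change of -0.25, lost its call in 5 of the alternatives.

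Receptors and surface proteins of these cells split as well, with 6 higher and 2 lower of 10 tested. Cd69, an early activation antigen, averaged 489.4 ± 246.7 against 153.1 ± 22.1 normalized counts (log2 fold change 1.53 ± 0.36), so its NA MPs varied widely. Csf2rb2, the beta chain of the mouse IL-3 receptor, rose by 0.69 ± 0.12 and Crlf2, of the TSLP receptor, by 0.68 ± 0.061. Ptger3, a prostaglandin E2 receptor, and Il1rl1, the IL-33 receptor, were lower, with log2 fold changes of -1.06 and -0.40. Mrgprb1 and Mrgprb2, the latter a receptor of connective tissue mast cells, had no count.
All 5 tested cytokine genes were higher, led by the chemokines Ccl4 (80.02 ± 41.4 against 10.3 ± 6.19 normalized counts, log2 fold change 2.83 ± 0.54) and Ccl3 (123.6 ± 50.7 against 23.8 ± 9.91, 2.36 ± 0.46) and by Tnf (70.4 ± 26.4 against 24.7 ± 7.65, 1.45 ± 0.24). Their spread between NA MPs was wide.

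Of 12 transcription regulators tested, 5 were higher and 3 lower. Gata2, which the mast cell and basophil lineages need, had 1840, 1531, 1470 and 1502 normalized counts in NA MPs and 1136, 1193, 1146, 1191 and 1189 in WT MPs. The groups were apart, and replicate 1 was again the highest. Its log2 fold change was 0.43 ± 0.052 (SE), and Stat5a and Stat5b, which relay signals of the IL-3 receptor, rose by 0.16 ± 0.039 and 0.15 ± 0.034. Gata1, its partner Zfpm1 and Tal1, on the same list as Gata2, were lower, with log2 fold changes of -0.49, -0.47 and -0.53. They thus went the other way from Gata2, and they also act in the red cell and platelet lineages. Of the family of Mitf, Tfec was lower (log2 fold change -0.27 ± 0.052) and the other 2 genes did not pass.

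**Figure D4:**
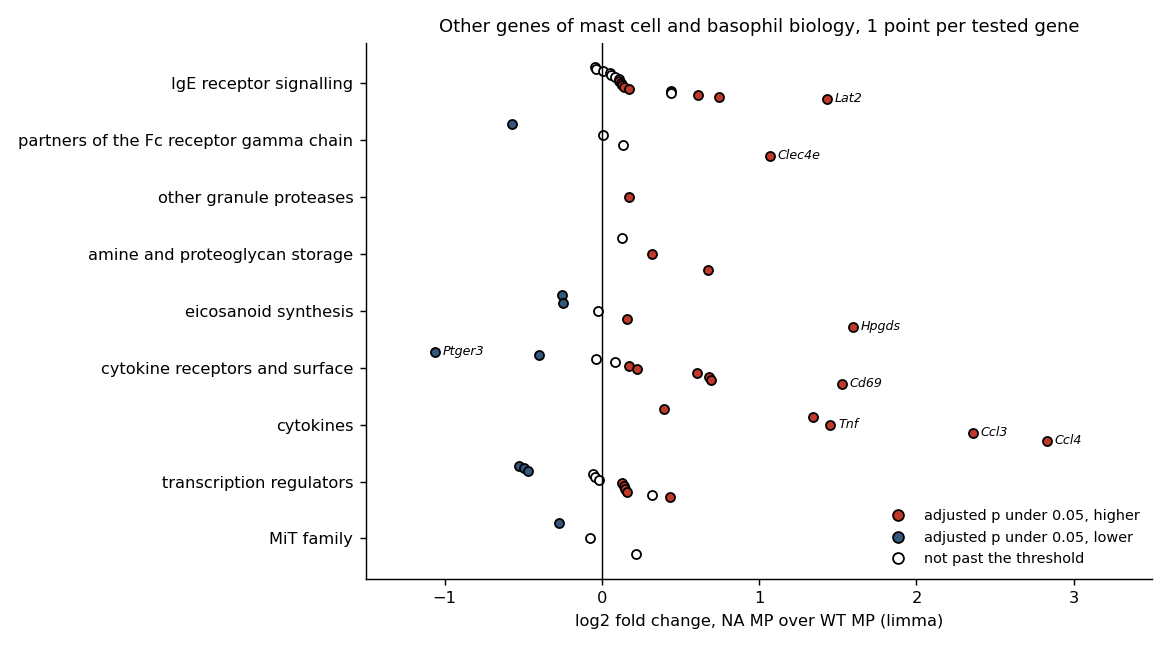
Log2 fold change (horizontal axis, NA MP over WT MP, limma) of the 60 tested genes of the 9 lists, 1 point a gene, filled where the adjusted p was under 0.05. The cytokine genes all lie to the right, up to Ccl4 at 2.83, while the regulators and surface genes lie on both sides of 0.

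The 10 genes include 3 of the chymase locus on chromosome 14, which holds mast cell proteases, cathepsin G and granzymes in one row of 15 genes. From Cma1 at one end to Gzmb at the other, only Cma1, Mcpt8, Ctsg and Gzmb were tested, and all 4 were higher. Between them Mcpt1, Mcpt2, Mcpt4 and Gzmc had 1 or 2 reads in all over the 4 NA MPs and 0 in the WT MPs, and Cma2, Mcpt9, Gzme, Gzmd, Gzmg, Gzmn and Gzmf had none. A count of 0 allows up to 3 reads, which is at most 3.60 normalized counts in a sample, for counting error only. The 2 genes that changed most thus lie at the ends of the locus, and the neighbours of Gzmb were not detectable at this depth.
Ms4a2 lies in the Ms4a cluster on chromosome 19, of which 15 listed genes were analysed and 7 tested. Besides Ms4a2, Ms4a4b rose by 0.71 ± 0.21, Ms4a4c by 0.59 ± 0.17, Ms4a6c by 0.39 ± 0.042, Ms4a6b by 0.38 ± 0.072 and Ms4a3, a marker of granulocyte and monocyte progenitors, by 0.11 ± 0.027 on the log2 scale. Ms4a6d had 10.96 ± 2.21 against 14.5 ± 2.80 normalized counts and did not pass (adjusted p = 0.29). Ms4a10, Ms4a15, Ms4a13 and Ms4a5 had no count.

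**Figure D5:**
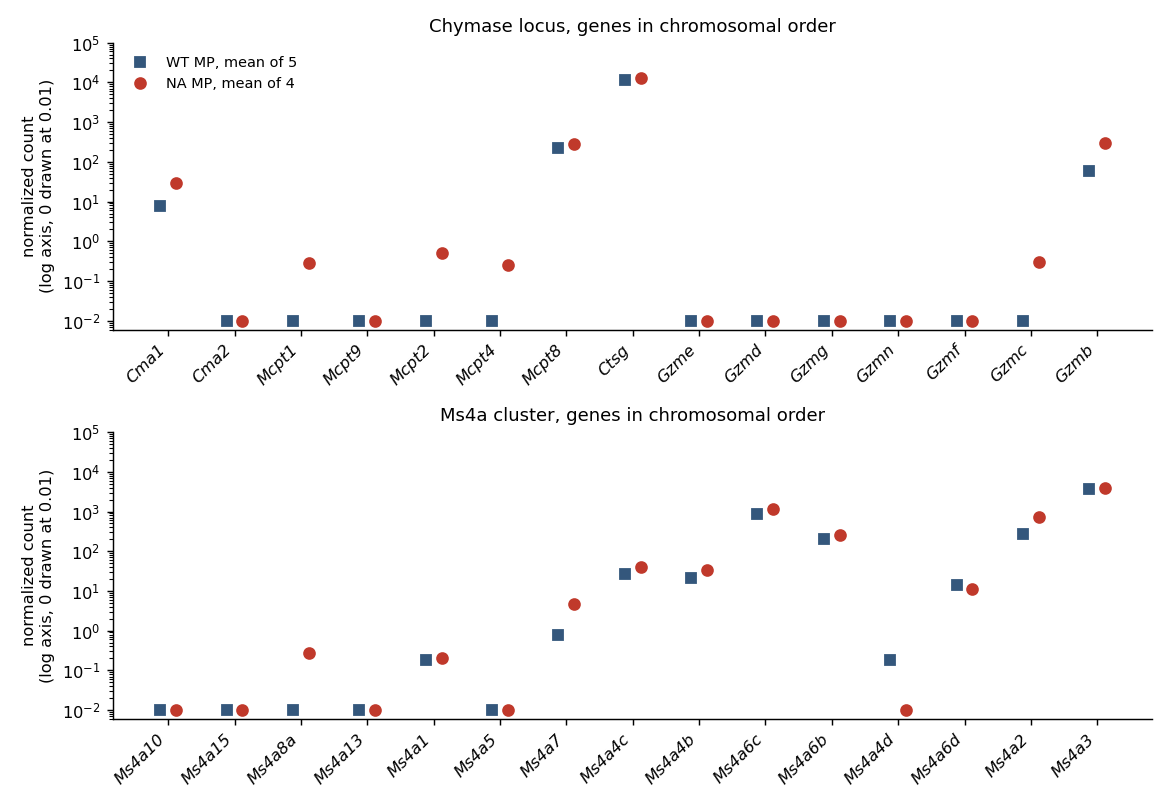
Mean normalized count (vertical log axis, with 0 drawn at 0.01) in WT MPs (squares) and NA MPs (circles) of the genes of the chymase locus and the Ms4a cluster, in chromosomal order. In the chymase locus only Cma1, Mcpt8, Ctsg and Gzmb lie above 1, and in the Ms4a cluster Ms4a2 has the widest gap between the groups of the tested genes.

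Markers of other cell types changed between the groups too, and the part of these cell types in the results was not tested. All 10 B lineage markers were higher in NA MPs, among them Rag1 (log2 fold change 3.66) and Ebf1 (3.52), with a summed level of 1356 to 2424 normalized counts against 352.2 to 387.6. Among the NA MPs it was lowest in replicate 1, which was the highest for 5 of the 10 genes and the lowest for 4. Of 9 tested erythroid markers 8 were lower, among them Pklr (log2 fold change -1.38) and Ermap (-1.37), with sums of 3872 to 4906 against 6985 to 7607.
Eosinophil markers went both ways: of 8 tested, Prg2, the major basic protein, stood at 519.9 ± 177.2 against 1045 ± 99.9 normalized counts, Ear1 and Prg3 had log2 fold changes of -0.97 and -0.92, 4 genes were lower in all, and Ccr3 (log2 fold change 2.37) and Siglecf (0.44) were higher. Ccr3 entered the test only through the NA MPs, and Ear1 only through the WT MPs. The summed level of the list ran from 957.9 in NA MP replicate 1 to 1587 in NA MPs and from 1592 to 1980 in WT MPs. Monocyte, macrophage and dendritic markers had sums of 6865 to 7773 against 6246 to 6906, with 4 higher, led by Mrc1 (2.16), Cd68 (0.98) and Adgre1 (0.57), and 1 lower, Ccr2 (-0.59). Megakaryocyte markers had sums of 1404 to 1629 against 1403 to 1567, with Itga2b higher (log2 fold change 0.19) and Vwf lower (-0.51).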

How the data were processed

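RNA of sorted MPs was sequenced on a NextSeq 500 from TruSeq libraries. The authors used RSEM and DESeq2, and the submitters' notes name mm10; annotation, versions and strand setting are not given in the sources used here. The deposited table is named as raw counts, but its values are a signal scaled between samples: from 97.2% to 97.5% of the values in a sample were whole multiples of 1 step (within 0.01 of a read), and the step differed between samples. The planned design assumed unscaled counts. As the values are not counts, limma 3.58.1 in R 4.3.3 was used instead, on log2(normalized count + 1), with trend and robust options, for genes at 10 or more in at least 4 samples, with Benjamini-Hochberg adjustment over 11987 genes. It was also run on simulated data, with far fewer changed genes than were called here. That run does not measure its errors on these data. A gene low in NA MPs could enter the test through the WT MPs alone, as Ear1 did. A gene low in WT MPs could enter the test through the NA MPs alone. Among those that did were Hoxa10, Cma1, Hpgds, Ccl4, Ccr3 and the B lineage markers Ebf1, Pax5 and Il7r. Gene names matched 32916 genes; exon lengths came from GENCODE M21. The groups were NA MPs and WT MPs. Named in the text are the 10 genes, both fusion partners, Kit and Ly6a as genes of the sort, and neighbours of the 10. Of each list, up to 3 genes higher and 3 lower by fold change are named, with markers without counts. A few marker genes that this rule names are not reported here. The genes and lists were chosen with earlier results of these data known. Alternatives were other scalings, filters, pseudocounts, the robust option, a replicate block and leaving out each sample.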

Additional observations from a re-analysis of the deposited data

Results flagged for a closer look

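Of 52 groups of values checked (each of the 10 genes and each list of companion or marker genes, in each group), 2 held a sample far from the others, and chance gives about 2.6. Gzmb in NA MP replicate 1 was at 381.7 normalized counts, while the other 3 NA MPs were at 271.0 to 274.4. Hdc in WT MP replicate 5 was at 1221 normalized counts, while the other 4 WT MPs were at 1316 to 1351, and this lowest WT MP still lay above every NA MP.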

How the results depend on the processing

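Of the 10 genes, 7 were higher in NA MPs in every alternative but 3, with 6 where at least 10 was asked of every sample (Cma1 was then not tested) and without NA MP replicate 2 or 3 (without Mcpt8). 1 was lower, Hdc, except for 2 without the robust option (with Prss34) and a range of 1 to 2 when each sample was left out (2 without NA MP replicate 3, with Mitf). Companion genes called higher ran from 28 to 33 and lower from 8 to 9. Of 1125 values of 63 single genes, 1111 kept their direction and side of the threshold, 12 lost their call, 2 gained one and 0 reversed. Replicate numbers do not pair the samples: the deviations of same-numbered samples correlated at -0.0204 to 0.0573. With the replicate block, on 8 samples, 7 of the 10 genes were higher and 1 lower, and 29 companion genes higher and 9 lower, the same counts as for those 8 samples without it, and Cd69 and Prg2 lost their calls; the cause was not tested. The fit of those 8 samples without the block and the pseudocounts of 0.5 and 4 were chosen after seeing the data. The planned count-model alternatives and the one without rounding were not run, since the values are scaled. Depth limits low genes such as Cma1 and the genes of the chymase locus without a count.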
